A study of Mus musculus with 7 samples.

Results

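The 10 genes described here mark wall stretch and hormone release in the heart. They are 10 of the 14641 genes of the table and were followed through every library. The rule that chose them is a list of names with no threshold on a value, and all 10 were found by symbol: Nppa, Nppb, Npr3, Corin, Ankrd1, Acta1, Acta2, Csrp3, Ankrd2 and Fhl1. The libraries came from whole heart lysate of male C57BL/6J mice, with 1 library per mouse. The 3 mNrf2-TG mice carried a transgene for the full-length mouse protein Nrf2, driven in cardiomyocytes by the αMHC promoter, and the 4 non-transgenic (NTG) mice were their littermates. An age of 6 months is on the mNrf2-TG labels, the methods give 6 to 7 months for the study, and the description of the data set gives 7 to 8 months. NTG libraries are numbered 1 to 4 and mNrf2-TG libraries 17 to 19, and the mNrf2-TG libraries carry the genotype TG although their titles call them mWT. The comparison asked how these genes stood in hearts with raised Nrf2.

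Nppa and Nppb encode the precursors of atrial and B-type natriuretic peptide, hormones that heart muscle secretes when its walls are stretched and that promote salt and water excretion and lower blood pressure. In a healthy adult heart Nppa is mainly an atrial gene, and both genes are switched on in ventricular muscle under load, together with fetal or smooth muscle forms of actin. Ankrd1, Ankrd2, Csrp3 and Fhl1 encode proteins of the sarcomere and Z-disc that bind titin or its partners and carry signals of mechanical strain to the nucleus.

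The libraries held 6534684 to 8405857 counts each. Values are given as normalized counts, which are counts scaled by TMM (trimmed mean of M values) factors to the mean library size. Nfe2l2, the gene of Nrf2, stood at 1402, 1253, 752 and 1050 normalized counts in NTG replicates 1 to 4 and at 12030, 10751 and 11654 in mNrf2-TG replicates 17, 18 and 19, a log2 fold change (mNrf2-TG over NTG) of 3.36 ± 0.18 (SE). These counts include reads of the transgene. The labelled tissue was checked with 9 cardiomyocyte genes, whose summed level was 668937 to 701123 normalized counts over the NTG hearts and 577076 to 592703 over the mNrf2-TG hearts. Of these 9, 4 were called lower in mNrf2-TG hearts by edgeR, Tnni3, Myl2, Pln and Myl3 (the last in 9 of 15 alternative settings), where 17.2% of all genes were called in either direction, and without NTG replicate 3 there were 5 called lower and 1 higher. Their part in the results on the members was not tested.

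NTG replicate 3 stood apart from the other NTG libraries. With a mean of at least 10 normalized counts, 115 of 12054 genes (0.954%) were more than 2 times as high in it as in the highest other NTG library. In the other direction 97 genes (0.805%) were under 0.5 times the lowest other NTG library. The screen for higher values found 8 genes for NTG replicate 1, 3 genes for replicate 2 and 21 genes for replicate 4. Among the members 4 passed it: Acta1 at 4.35 times, Acta2 at 4.21 times, Nppb at 3.93 times and Ankrd1 at 2.09 times the highest other NTG library. The library labelled NTG replicate 3 was the highest NTG library for 8 of the 10 members. These include Ankrd2, at 2 counts before scaling, and Csrp3, at 1.06 times the highest other NTG library. The share of all genes for which it was the highest was not computed. Results on the members are therefore given with all 7 libraries and, where that library moves them, without it. The members' own values are part of what sets it apart. Where it is the highest NTG library, leaving it out lowers the NTG mean by construction. For such members the p-values without it are no independent support.

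The natriuretic peptide genes lie side by side, and their upstream sequences were taken from RefSeq (GRCm38.p6) for comparison with that of Acta1, whose control by serum response factor is well known. In GENCODE M21 (GRCm38) Nppb (Entrez gene 18158) spans chr4:147985788-147987205 and Nppa (Entrez gene 230899) spans chr4:148000722-148002079, both on the plus strand and 13516 bases apart. Acta1 (Entrez gene 11459) lies on the minus strand at chr8:123891769-123894751. Each sequence reads 5′ to 3′ and holds only bases before the first annotated base of the gene. Capitals mark TATAAA (the TATA box), GATA (the core that GATA factors bind), CATTCC (a core that TEAD factors bind) and the CArG box, the site of serum response factor, on either strand. The first lies at chr4:148000472-148000721, the second at chr4:147985650-147985785 and the third at chr8:123894776-123895025.
Nppa: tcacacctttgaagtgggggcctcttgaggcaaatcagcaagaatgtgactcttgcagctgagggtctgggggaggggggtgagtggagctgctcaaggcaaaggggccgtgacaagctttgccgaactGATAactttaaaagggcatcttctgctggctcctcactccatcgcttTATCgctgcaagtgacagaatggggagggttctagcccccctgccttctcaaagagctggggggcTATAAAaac
Nppb: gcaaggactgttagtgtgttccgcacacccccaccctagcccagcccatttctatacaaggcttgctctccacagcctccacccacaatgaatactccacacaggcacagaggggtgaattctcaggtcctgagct
Acta1: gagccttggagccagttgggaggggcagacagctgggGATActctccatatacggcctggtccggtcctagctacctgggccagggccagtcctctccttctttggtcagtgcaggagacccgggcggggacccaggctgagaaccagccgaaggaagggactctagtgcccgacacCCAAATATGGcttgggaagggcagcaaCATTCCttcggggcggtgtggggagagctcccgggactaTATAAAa

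The window of Nppa held TATAAA and a pair of GATA matches, and that of Acta1 held all 4 kinds of match, with its CArG box 73 to 64 bases before the RefSeq start. The 136 bases printed for Nppb held no match. The rest of its window of 250 bases starts at the first base annotated in GENCODE or RefSeq and held 1 TATAAA, 2 GATA and 1 CATTCC match. A window was found for all 10 members, and 2 members had 2 of them, which makes 12 windows. A CArG box (a pair of C, then 6 bases that are A or T, then a pair of G, with no mismatch) was found in the windows of Acta1 and Fhl1 only. With 1 mismatch allowed, a window of Nppa, Corin, Csrp3, Ankrd2 and Fhl1 held 1 such match each and those of Acta1 and Acta2 held 2 each, and 17.5% of all windows held at least 1 such match. CATTCC was found in the windows of Nppb, Ankrd1, Acta1 and Acta2. TGACNNNGC, the core of the element that Nrf2 binds with small Maf proteins, was found only in the window of Ankrd1, 72 to 64 bases before the RefSeq start. All 250 bases of that window lie inside the gene as GENCODE annotates it, as do 217 bases of the Acta2 window, 112 of the Nppb window and 27 of the Ankrd2 window. Both windows of Fhl1 and 1 of the 2 windows of Csrp3 also lie wholly inside their genes. Of 32851 windows of the same length in the genome, 1.47% held a CArG box, 12.4% TATAAA, 53.6% GATA, 10.2% TGACNNNGC and 12.6% CATTCC. A match describes the letters of a window and does not show that a factor is bound there.

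Nppa was higher in every mNrf2-TG heart than in any NTG heart. Its normalized counts were 756, 670, 1416 and 1201 in NTG replicates 1 to 4 and 3865, 1986 and 2536 in mNrf2-TG replicates 17, 18 and 19. The groups did not overlap, and the NTG libraries fell into a lower pair and a higher pair, replicate 3 being the highest. The means were 1011 ± 357 (SD, n = 4) and 2796 ± 966 (SD, n = 3), a log2 fold change of 1.47 ± 0.28 (SE) with an adjusted p of 0.00727 in edgeR's quasi-likelihood test. Without NTG replicate 3 the log2 fold change was 1.67 ± 0.25, with an adjusted p of 0.00164 in the same test. Over all genes 8.48% were called higher with all 7 libraries and 10.1% without NTG replicate 3.

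Nppb was as high in NTG replicate 3 as in the mNrf2-TG hearts. Its normalized counts were 728, 679, 5427 and 1382 in NTG and 5710, 4913 and 3898 in mNrf2-TG libraries. The mNrf2-TG libraries lay above NTG replicates 1, 2 and 4, while NTG replicate 3 lay within their range. With all 7 libraries the means were 2054 ± 2271 (SD, n = 4) and 4841 ± 908 (SD, n = 3), and the log2 fold change of 1.24 ± 0.62 (SE) did not pass edgeR's quasi-likelihood test (adjusted p = 0.199). Without NTG replicate 3 the NTG mean was 930 ± 392 (SD, n = 3) and the log2 fold change was 2.38 ± 0.25, with an adjusted p of 0.000202 in the same test. Nppb was called in 1 of 15 alternative settings, the one without that library, and Nppa in 15 of 15.

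The balance of the 2 hormones was compared as the ratio of Nppa to Nppb counts within each library, which needs no scaling between libraries. The ratio was 1.04, 0.985, 0.261 and 0.869 in NTG and 0.677, 0.404 and 0.651 in mNrf2-TG libraries. NTG replicate 3 had the lowest ratio of all 7 libraries, and the other NTG libraries had the 3 highest. The log2 difference was −0.30, −0.77 without NTG replicate 3 and −0.07 without mNrf2-TG replicate 18. With all libraries it had a p of 0.657 in an exact two-sided permutation test over the 35 ways to divide the libraries into 4 and 3 (adjusted p = 0.92 over 7 ratios), for which 0.0286 is the smallest p possible.

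**Figure D1:**
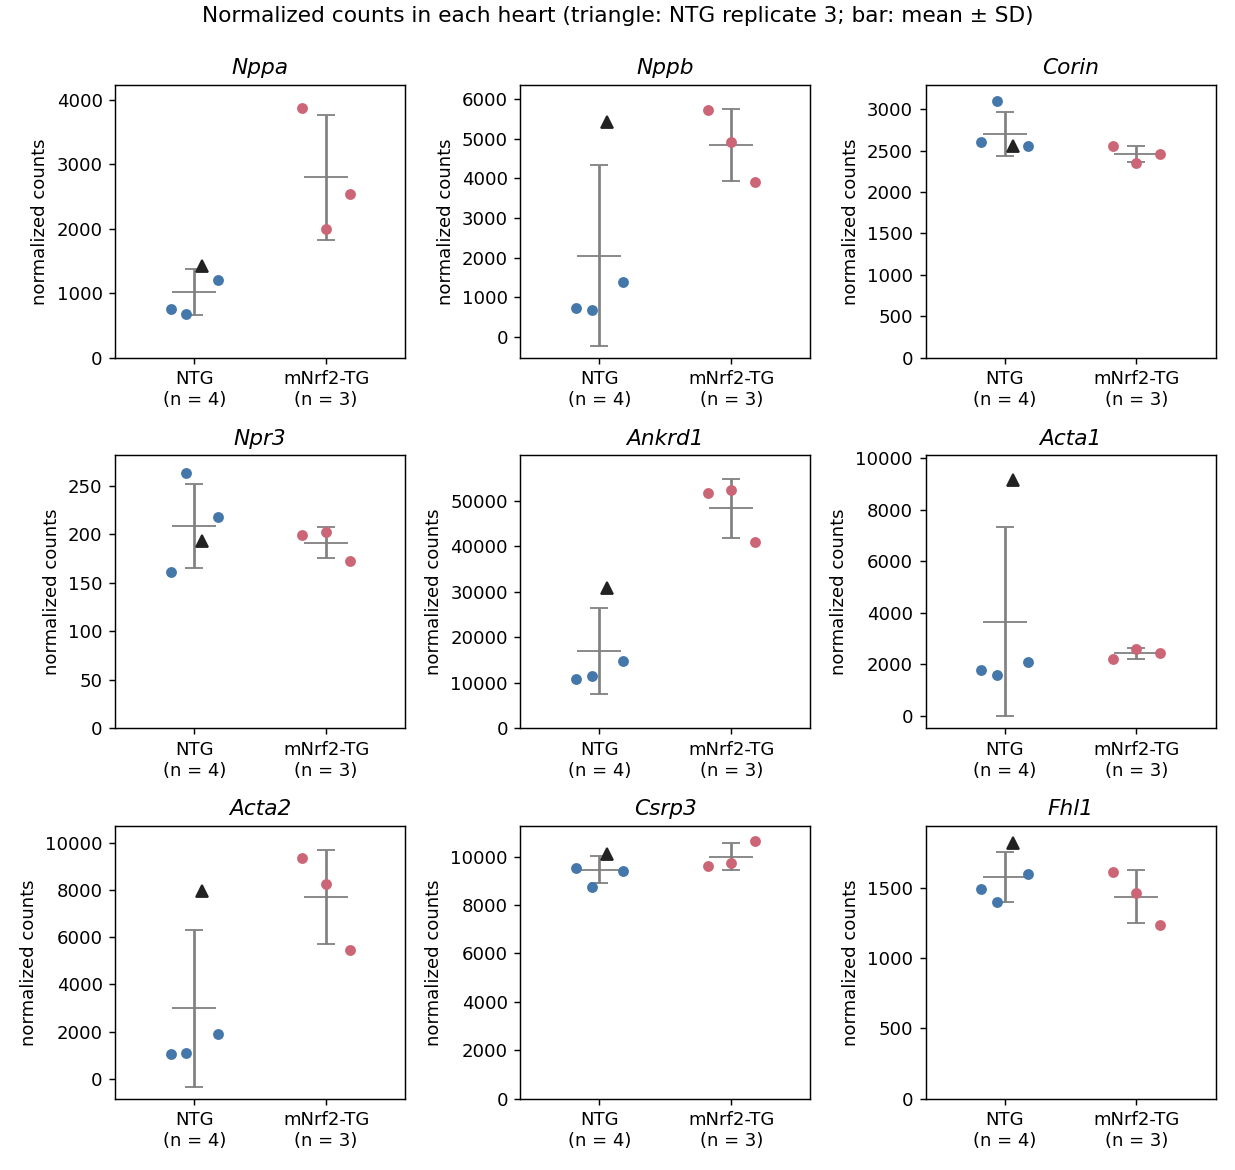
Normalized counts (vertical axis) of 9 members in each library, by group (horizontal axis: NTG, n = 4, and mNrf2-TG, n = 3). Points are libraries, the triangle is NTG replicate 3 and bars give the mean ± SD, which reaches below 0 where 1 library lies far above the rest. The triangle lies among the mNrf2-TG points for Nppb and Acta2, at 5427 and 7947, and above all of them for Acta1, at 9170.

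Because Nppa is an atrial gene in the adult heart, markers of atrial muscle were read beside it. Myl7, the atrial regulatory light chain, was at 0 to 4 counts in every library. Of the 9 listed atrial markers 7 were tested, and 1 of them was called higher, Stard10 (log2 fold change 1.11 ± 0.14, edgeR adjusted p = 0.00122). Over all genes 8.48% were called higher. The median log2 fold change of the 7 was 0.82, and 5 of them had a mean of at least 10 normalized counts. At an unadjusted p under 0.05 in the edgeR test, 5 of the 7 were higher. The share of all genes at that threshold was not computed. It is no smaller than the 8.48% called after adjustment, and no excess is read from the 5. Mybphl, 1 of those higher, had at most 1 count in NTG and 3 to 4 counts in mNrf2-TG libraries, before scaling. Leaving out NTG replicate 3 gave 3 called higher, Stard10, Dkk3 (edgeR adjusted p = 0.0467) and Myl4, and a median of 0.93. The list summed to 333 to 385 normalized counts in NTG libraries, with 352 in NTG replicate 3, and to 523 to 694 in mNrf2-TG libraries. Most of that rise came from Stard10 alone, at 172 to 216 in NTG and 332 to 521 in mNrf2-TG libraries. Nr2f2 of the same list went the other way (log2 fold change −0.31 ± 0.14, edgeR adjusted p = 0.16). The listed markers Sln and Bmp10 had no entry in the deposited counts. Myl4, an atrial light chain also used by the fetal ventricle, was at 15.3 to 26.8 normalized counts among NTG and 23.7 to 59.0 among mNrf2-TG libraries (edgeR adjusted p = 0.0690, and 0.0488 without NTG replicate 3). Of 4 ventricular markers, the light chain genes Myl2 and Myl3 were called lower, and the list sum was 127931 to 147523 normalized counts for NTG and 97839 to 110513 for mNrf2-TG libraries. The part of atrial tissue in the Nppa result was not tested. In whole-heart RNA a change in the number of cells of a type and a change in RNA per cell cannot be told apart.

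Corin and Npr3 act on the hormones after they are made, Corin as the membrane protease that cuts the Nppa precursor and Npr3 as the receptor that clears natriuretic peptides from the circulation. Neither passed the test. Corin (chr5:72300025-72504473, minus strand) was at 2608, 3099, 2552 and 2559 normalized counts in NTG and 2556, 2355 and 2462 in mNrf2-TG libraries, with NTG replicate 2 above all others. Its log2 fold change was −0.14 ± 0.08 (SE), with an adjusted p of 0.286 in edgeR's quasi-likelihood test. Npr3 (chr15:11839896-11907287, minus strand) was at 161, 263, 193 and 218 in NTG and 199, 202 and 173 in mNrf2-TG libraries. All mNrf2-TG values of Npr3 lay inside the NTG range, and its log2 fold change was −0.13 ± 0.15 (edgeR adjusted p = 0.605). The ratio of Npr3 to Npr1, the receptor that makes cGMP on binding of atrial or B-type peptide, was 1.14 to 1.39 in NTG and 1.30 to 1.54 in mNrf2-TG libraries (exact permutation p = 0.457, adjusted p = 0.80).

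The pathway of these hormones was listed as 17 genes, of which 15 were tested. Among these 15, 1 was called higher, Nppa, and 2 were called lower, Mme and Furin, where 17.2% of all tested genes were called in either direction. The median log2 fold change of the list was −0.13, against 0.00 over all genes. Mme, the gene of neprilysin, the protease that degrades natriuretic peptides, stood at 120, 115, 200 and 123 normalized counts in NTG and at 46.3, 39.4 and 37.2 in mNrf2-TG libraries, with no overlap. Its log2 fold change was −1.77 ± 0.23 (SE), with an adjusted p of 0.00105 in edgeR's quasi-likelihood test. Furin, a protease that cuts the Nppb precursor, stood at 1016, 1035, 1440 and 1075 in NTG and 754, 849 and 750 in mNrf2-TG libraries. It too had no overlap between the groups, with a log2 fold change of −0.54 ± 0.12 (edgeR adjusted p = 0.0164, called in 13 of 15 alternative settings). The receptors Npr1 (−0.22 ± 0.14, edgeR adjusted p = 0.296) and Npr2, the receptor of C-type peptide (−0.08 ± 0.07, edgeR adjusted p = 0.438), did not pass. Neither did Prkg1, the cGMP-dependent kinase, or the phosphodiesterases Pde2a, Pde3a, Pde5a and Pde9a. Without NTG replicate 3 the list had 2 genes called higher and 2 called lower, where 20.2% of all genes were called.

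**Figure D2:**
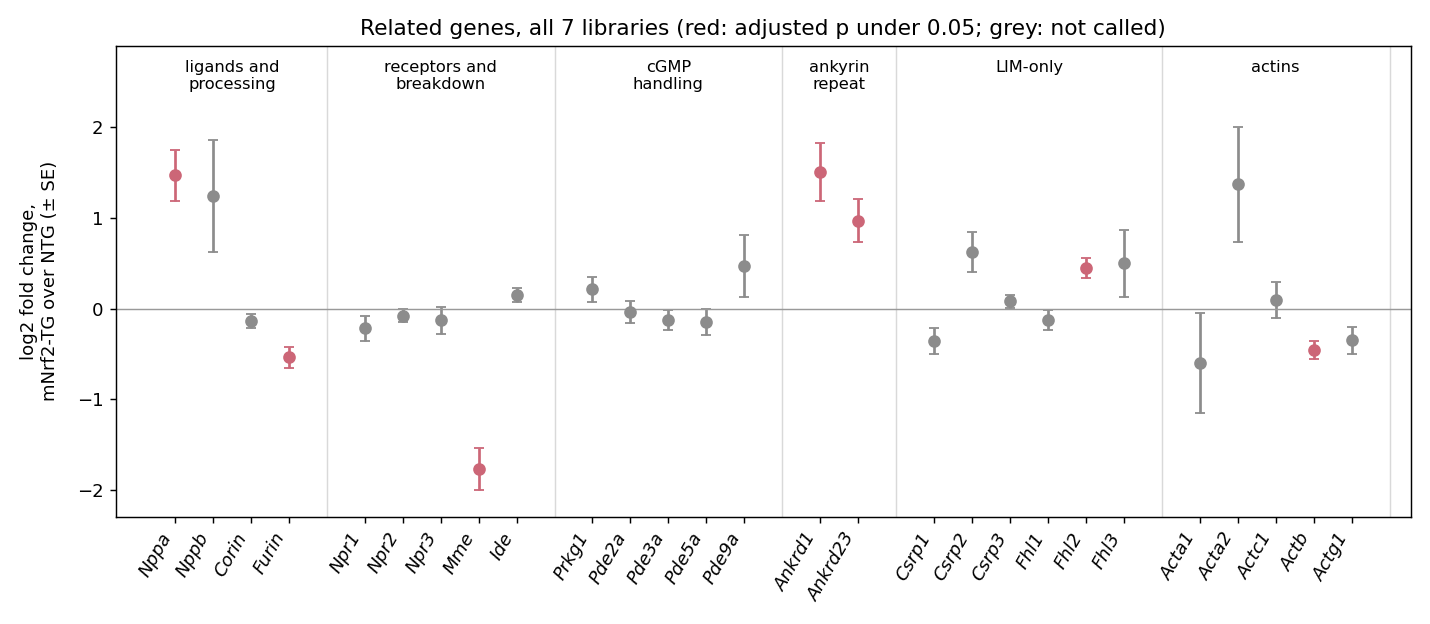
Log2 fold change of mNrf2-TG over NTG (vertical axis, ± SE, all 7 libraries) of members and of related genes listed with them (horizontal axis, grouped by role). Red points passed an adjusted p under 0.05 in edgeR's quasi-likelihood test and grey points did not. Nppa, Ankrd1, Ankrd23 and Fhl2 lie above 0 in red, and Mme, Furin and Actb below 0 in red.

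Ankrd1, a titin-bound ankyrin repeat protein that also enters the nucleus, was the most abundant member in the mNrf2-TG hearts per kilobase of annotated exon. Its normalized counts were 10824, 11410, 30879 and 14800 in NTG and 51595, 52384 and 40844 in mNrf2-TG libraries. The groups did not overlap, and NTG replicate 3 lay between the other NTG libraries and the mNrf2-TG libraries. The means were 16978 ± 9431 (SD, n = 4) and 48274 ± 6447 (SD, n = 3), a log2 fold change of 1.51 ± 0.32 (SE) with an adjusted p of 0.0112 in edgeR's quasi-likelihood test. Without NTG replicate 3 the log2 fold change was 1.97 ± 0.13, with an adjusted p of 8.48e-06 in the same test, and the NTG mean was 12345 ± 2146 (SD, n = 3). Ankrd1 (Entrez gene 107765) lies at chr19:36111961-36120099 on the minus strand, with no other gene annotated over it.

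The other members of its family differed widely in level. Ankrd2, which is known from slow skeletal muscle, had 0, 0, 2 and 0 counts in NTG and 3, 0 and 1 counts in mNrf2-TG libraries, before scaling. It lay at or under a floor of 3 counts in all 7 libraries (at most 0.458 CPM) and was at 0 in 4 of them, so no fold is given. Ankrd23, also titin-bound, stood at 3494, 2849, 6464 and 4331 normalized counts in NTG and 9731, 8868 and 6498 in mNrf2-TG libraries. The lowest mNrf2-TG library and NTG replicate 3 were almost level. Its log2 fold change was 0.97 ± 0.24 (edgeR adjusted p = 0.0233), and it was called in 12 of 15 alternative settings.

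Acta1 and Acta2 encode skeletal and vascular smooth muscle α-actin, both made by the fetal heart and both known to return in strained ventricles. Acta1 was highest in an NTG heart. Its normalized counts were 1797, 1568, 9170 and 2108 in NTG and 2208, 2608 and 2445 in mNrf2-TG libraries. NTG replicate 3 lay far above the rest, and the mNrf2-TG libraries lay just above NTG replicates 1, 2 and 4. The log2 fold change was −0.60 ± 0.55 (SE) with all libraries (edgeR adjusted p = 0.498) and 0.41 ± 0.11 without NTG replicate 3 (edgeR adjusted p = 0.0247), so that its sign depended on that library. The 10 listed markers of skeletal muscle, the adult home of Acta1, summed to 660 to 868 normalized counts in NTG replicates 1, 2 and 4. Their sum was 1258 in NTG replicate 3 and 442 to 683 in mNrf2-TG libraries, and 3 of them had a mean of at least 10. Most of the sum came from Myh1 and Myh4, at 666 and 489 in NTG replicate 3. Both were called lower (edgeR adjusted p = 0.0327 and 0.0134), where 17.2% of all genes were called. Myh2 stood at 3.45, 1.8, 70.1 and 45.8 in NTG and 62.6 to 92.5 in mNrf2-TG libraries (edgeR adjusted p = 0.213). The part of such tissue in the Acta1 values was not tested. Of the 1534 stretches of 50 bases in its transcripts, 2.02% also occur in another gene, among them Actb, and the reads of such stretches could have been assigned to either.

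Acta2 (Entrez gene 11475, chr19:34241090-34255590, minus strand) resembled Nppb. Its normalized counts were 1026, 1092, 7947 and 1886 in NTG and 9353, 8266 and 5470 in mNrf2-TG libraries. NTG replicate 3 lay within the mNrf2-TG range and the other NTG libraries below it. With all 7 libraries the means were 2988 ± 3329 (SD, n = 4) and 7696 ± 2003 (SD, n = 3), and the log2 fold change of 1.37 ± 0.63 (SE) did not pass edgeR's quasi-likelihood test (adjusted p = 0.163). Without NTG replicate 3 the NTG mean was 1335 ± 478 (SD, n = 3) and the log2 fold change was 2.53 ± 0.25, with an adjusted p of 0.000132 in the same test. In 2 of 15 alternative settings Acta2 was called, the one without that library and limma-voom. In its transcripts 0.326% of the stretches of 50 bases also occur in another gene.

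Vessel walls also express Acta2, so other smooth muscle genes were read beside it. None of 8 smooth muscle markers was called in edgeR's quasi-likelihood test, with all libraries or without NTG replicate 3. At an unadjusted p under 0.05 the counts were 0 and 1, and DESeq2, limma-voom and limma on the deposited rlog values called 0. Their summed level ran from 3189 to 3543 normalized counts over the NTG hearts, highest in replicate 3, and from 2995 to 3540 over the mNrf2-TG hearts. Most of the list's sum came from Synpo2 and Smtn, with NTG means of 1294 and 1067. The means in NTG and mNrf2-TG were 369 and 343 for Myh11 and 274 and 256 for Tagln. Outside this list, 2 genes known from smooth muscle had the order of Acta2. Myl9, chosen after its values were seen, stood at 188 to 270 in NTG replicates 1, 2 and 4. It stood at 752 in NTG replicate 3 and 828 to 1392 in mNrf2-TG libraries. For Csrp2 the same values were 71.3 to 88.6, 150 and 142 to 165. The ratio of Acta2 to Myh11, the smooth muscle myosin, was 2.83, 3.46, 18.2 and 5.23 in NTG and 31.5, 18.2 and 19.7 in mNrf2-TG libraries. NTG replicate 3 was level with the lowest mNrf2-TG library, and the other NTG libraries lay below all of them. The log2 difference of 2.02 had a p of 0.0571 in the exact two-sided permutation test (adjusted p = 0.20), and it was 2.60 without NTG replicate 3. Of 8 genes of activated fibroblasts, which also make Acta2, 2 collagens were called higher, Col1a1 (log2 fold change 0.77 ± 0.17, edgeR adjusted p = 0.0141) and Col3a1 (0.77 ± 0.17, edgeR adjusted p = 0.0137), and Lox, which cross-links collagen, was called lower (−0.99 ± 0.27, edgeR adjusted p = 0.0340, called in 8 of 15 alternative settings). Lox was not called without NTG replicate 3, where the list had 3 genes called higher (edgeR adjusted p for Lox = 0.0518). Over all genes 17.2% were called in either direction and 8.48% higher, against 20.2% and 10.1% without NTG replicate 3. The fibroblast list summed to 2237 to 2933 normalized counts in NTG replicates 1, 2 and 4, 3063 in NTG replicate 3 and 3458 to 4020 in mNrf2-TG libraries. The part of these cells in the Acta2 result was not tested.

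Actc1, the cardiac α-actin of the adult sarcomere, was set against both genes. It stood at 105212, 92793, 62659 and 128108 normalized counts in NTG and 124693, 92294 and 93456 in mNrf2-TG libraries, lowest in NTG replicate 3 (log2 fold change 0.09 ± 0.20, edgeR adjusted p = 0.801). The ratio of Acta1 to Actc1 counts was 0.0171, 0.0169, 0.146 and 0.0165 in NTG and 0.0177, 0.0283 and 0.0262 in mNrf2-TG libraries. Apart from NTG replicate 3, the NTG ratios were nearly equal and lay below all mNrf2-TG ratios (log2 difference −0.29 with all libraries, exact permutation p = 1, and 0.49 without NTG replicate 3). The ratio of Acta2 to Actc1 was 0.00975, 0.0118, 0.127 and 0.0147 in NTG and 0.075, 0.0896 and 0.0585 in mNrf2-TG libraries. There NTG replicate 3 lay above all 3 mNrf2-TG libraries (log2 difference 1.77, exact permutation p = 0.143, adjusted p = 0.333, and a log2 difference of 2.62 without NTG replicate 3). Of the 6 listed actins, 1 was called with all libraries, Actb, a cytoplasmic actin, which was lower (log2 fold change −0.46 ± 0.10, edgeR adjusted p = 0.0113).

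**Figure D3:**
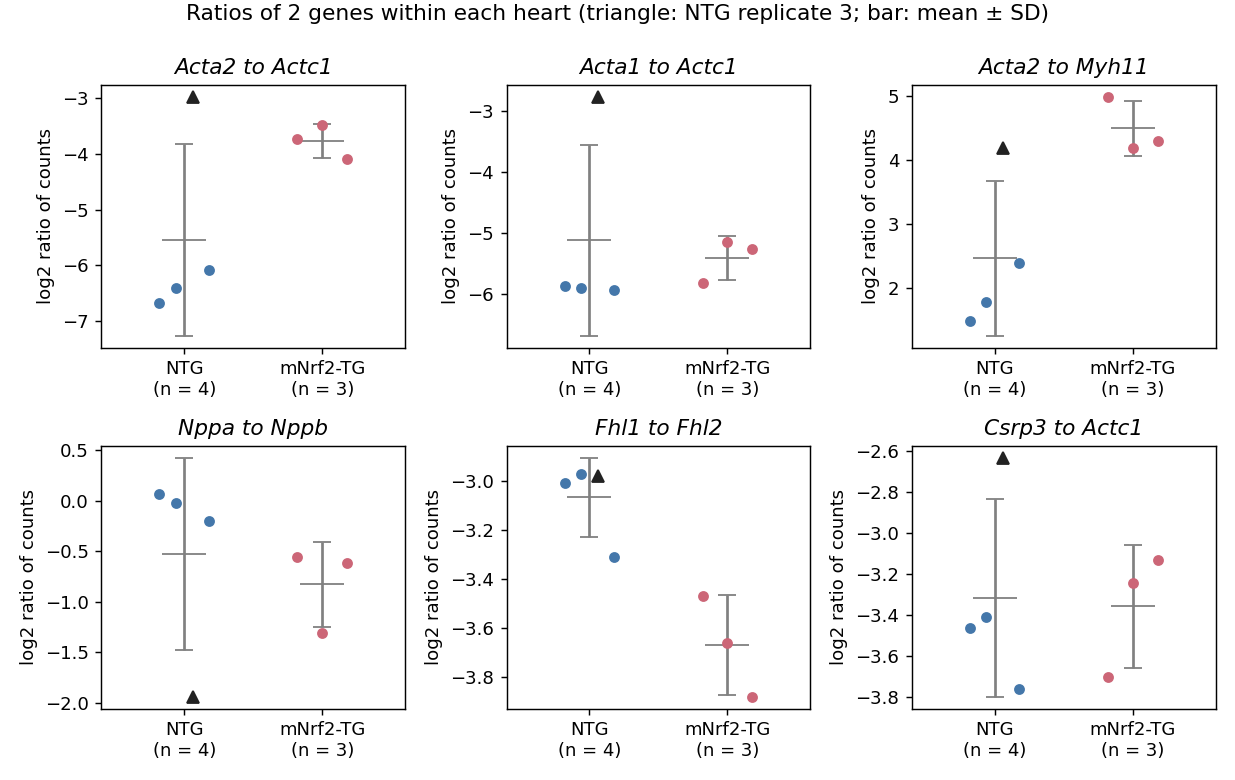
Log2 ratio of the counts of 2 genes within each library (vertical axis) by group (horizontal axis: NTG, n = 4, and mNrf2-TG, n = 3), with the mean ± SD as bars and NTG replicate 3 as a triangle. Counts of Acta2 relative to Actc1 were 0.127 in NTG replicate 3, 0.00975 to 0.0147 in the other NTG libraries and 0.0585 to 0.0896 in mNrf2-TG libraries. The groups are apart without exception for Fhl1 to Fhl2.

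Csrp3 and Fhl1, which encode LIM-domain proteins, varied little. Csrp3, muscle LIM protein of the Z-disc, stood at 9548, 8750, 10110 and 9429 normalized counts in NTG and 9614, 9752 and 10643 in mNrf2-TG libraries. The ranges overlapped, and the log2 fold change was 0.08 ± 0.07 (SE), with an adjusted p of 0.465 in edgeR's quasi-likelihood test. Csrp3 (chr7:48830398-48848033, minus strand) had the smallest spread of the members in NTG, with an SD of 5.90% of the mean. Fhl1 (chrX:56731787-56793346, plus strand), which binds the N2B segment of titin, stood at 1491, 1401, 1821 and 1603 in NTG and 1613, 1467 and 1236 in mNrf2-TG libraries. These ranges overlapped too, with a log2 fold change of −0.13 ± 0.11 (edgeR adjusted p = 0.445).

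Among the 7 LIM-only genes tested, which include Csrp3 and Fhl1, 1 was called, where 17.2% of all genes were called. This was Fhl2, the heart-enriched relative of Fhl1. Fhl2 stood at 11970, 11005, 14354 and 15881 normalized counts in NTG and 17885, 18547 and 18176 in mNrf2-TG libraries, a log2 fold change of 0.45 ± 0.11 (edgeR adjusted p = 0.0232). It was called in 11 of 15 alternative settings. The ratio of Fhl1 to Fhl2 counts was 0.125, 0.127, 0.127 and 0.101 in NTG and 0.0902, 0.0791 and 0.068 in mNrf2-TG libraries. All mNrf2-TG ratios lay below all NTG ratios (log2 difference −0.60), and the exact two-sided permutation test gave the smallest p it can, 0.0286, which became 0.20 after adjustment over 7 ratios. Of the other Csrp genes, Csrp2, known from vascular smooth muscle, stood at 71.3, 80.1, 150 and 88.6 in NTG and 165, 144 and 142 in mNrf2-TG libraries (edgeR adjusted p = 0.0824, and 0.00128 without NTG replicate 3). Csrp1 stood at 478, 476, 326 and 463 in NTG and 365, 304 and 349 in mNrf2-TG libraries (edgeR adjusted p = 0.0973, and 0.00415 without NTG replicate 3). For both genes NTG replicate 3 was on the mNrf2-TG side of the other NTG libraries.

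Compared as TMM-scaled CPM per kilobase of annotated exon, the members spanned a wide range. In NTG libraries Csrp3 stood at 1243 to 1437, Ankrd1 at 712 to 2031, Nppb at 116 to 923, Nppa at 103 to 217, Acta1 at 144 to 843, Acta2 at 67.0 to 519, Corin at 68.3 to 82.9, Fhl1 at 61.8 to 80.2 and Npr3 at 2.95 to 4.82. In NTG many of these ranges overlapped: that of Ankrd1 overlapped those of Csrp3, Nppb and Acta1, and that of Acta2 overlapped those of Nppb, Nppa, Acta1, Corin and Fhl1. Npr3 lay below all of these, and Ankrd2, under its floor of 3 counts, was left out of the order in both groups. In mNrf2-TG libraries the order was Ankrd1 (2687 to 3446), Csrp3 (1366 to 1512), Nppb (663 to 971), Acta2 (357 to 611), Nppa (305 to 594), Acta1 (203 to 240), Corin (63.0 to 68.4), Fhl1 (54.5 to 71.1) and Npr3 (3.18 to 3.70). The ranges of Acta2 and Nppa overlapped there, as did those of Corin and Fhl1, while Ankrd1 lay above Csrp3 in all 3 libraries.

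**Figure D4:**
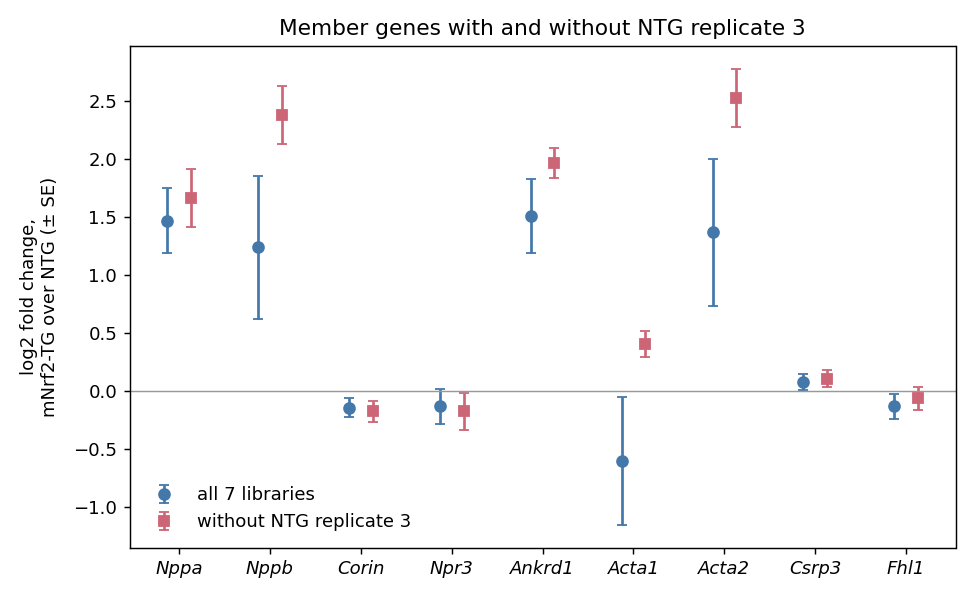
Log2 fold change of mNrf2-TG over NTG (vertical axis, ± SE) of the 9 members with a mean of at least 10 normalized counts (horizontal axis), with all 7 libraries (circles) and without NTG replicate 3 (squares). Leaving out that library moved Nppb from 1.24 to 2.38, Acta2 from 1.37 to 2.53 and Acta1 from −0.60 to 0.41, while the other members moved less.

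Counted together, 2 of the 10 members were called higher with all libraries, Nppa and Ankrd1, and 0 were called lower in edgeR's quasi-likelihood test. At an unadjusted p under 0.05 the same counts were 2 and 0. DESeq2 called 2 higher and 0 lower, and limma-voom 3 and 0. Over all tested genes edgeR called 8.48% higher. In either direction edgeR called 2519 genes, DESeq2 2421 and limma-voom 2532, and the share at an unadjusted p was not computed. Nppa and Ankrd1 were also the members whose groups did not overlap, and the groups did not overlap for 29.7% of all tested genes. Without NTG replicate 3, 5 members were called higher, Nppa, Nppb, Ankrd1, Acta1 and Acta2, and 0 lower, where 10.1% of all genes were called higher. Of these, Nppb, Ankrd1, Acta1 and Acta2 had passed the screen for higher values in that library, so this count is no independent support. The median log2 fold change of the 9 members other than Ankrd2 was 0.08 with all libraries and 0.41 without NTG replicate 3, against 0.00 over all genes in both cases. Corin, Npr3, Csrp3 and Fhl1 were called in 0 of 15 alternative settings.

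Several wider lists were read beside the members, over a background of 17.2% of all genes called in either direction. Some genes that belong to their themes were described above and were not listed again: Nppa is not on the fetal list, Ankrd1, Acta1 and Acta2 are not on the list of genes coupled to serum response factor or YAP, and Ankrd1 and Ankrd23 are not on the titin-linked list. The counts hold for the lists as written. Of 13 genes of the fetal program, 1 was called higher, Kcnip2, a subunit of the transient outward potassium channel that marks the adult ventricle (log2 fold change 1.51 ± 0.09, edgeR adjusted p = 5.23e-06), and 1 lower, Tnni3, the adult cardiac troponin I (−0.53 ± 0.06, edgeR adjusted p = 0.000716). Myh7, the slow myosin that returns with Nppa and Acta1 in loaded mouse ventricles, stood at 13859, 14211, 29402 and 20160 normalized counts in NTG and 24010, 21578 and 17946 in mNrf2-TG libraries. NTG replicate 3 was again the highest, and the test was not passed (log2 fold change 0.13 ± 0.23, edgeR adjusted p = 0.757, and 0.40 ± 0.14 without NTG replicate 3, edgeR adjusted p = 0.0788). Without that library the list had 3 genes called higher, Kcnip2, Acta1 and Myl4, and 1 lower. Of 15 titin-linked genes, 2 were called higher, Trim54, a RING finger protein of the sarcomere (0.66 ± 0.07, edgeR adjusted p = 0.000382), and Sqstm1, an autophagy receptor (0.45 ± 0.12, edgeR adjusted p = 0.0248, called in 13 of 15 alternative settings). The other 2 that were called, Myoz2 and Ldb3, both of the Z-disc, were lower (edgeR adjusted p = 0.00469 and 0.0389), Ldb3 in only 9 of 15 alternative settings. The median of that list was −0.14.

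Of 12 genes coupled to serum response factor or YAP, 0 were called higher by edgeR (1 at an unadjusted p under 0.05, and 0 by DESeq2 and limma-voom) and 3 lower, Myocd, the myocardin coactivator (log2 fold change −0.68 ± 0.17, edgeR adjusted p = 0.0246), and Tead1 and Wwtr1, factors of the YAP pathway (−0.23 ± 0.07 and −0.25 ± 0.07, edgeR adjusted p = 0.0418 and 0.0483). Myocd was called in 10, Tead1 in 7 and Wwtr1 in 8 of 15 alternative settings, and Tead1 was not called without NTG replicate 3 (edgeR adjusted p = 0.0616), where the list had 1 gene called higher, Ccn2, and 2 lower. Ccn2, a matrix protein induced by strain, stood at 1044, 1387, 6592 and 1365 normalized counts in NTG and 2931, 2579 and 1359 in mNrf2-TG libraries. Its pattern across the NTG libraries was that of Acta1, with replicate 3 above every mNrf2-TG library (edgeR adjusted p = 0.866, and 0.0266 without NTG replicate 3). Of 7 early response and heat shock genes, 1 was called, Hspa1b, which was lower (edgeR adjusted p = 0.0443, called in 7 of 15 alternative settings). Leaving out NTG replicate 3 gave 3 called lower, Hspa1a, Hspa1b and Dnajb1 (edgeR adjusted p = 0.00174, 0.000639 and 0.000511). That list summed to 3094 to 5033 normalized counts in NTG replicates 1, 2 and 4, 1444 in NTG replicate 3 and 698 to 1543 in mNrf2-TG libraries. In NTG replicates 1, 2 and 4 most of the sum came from the heat shock genes Hspa1a and Hspa1b, which stood at 128 and 120 in NTG replicate 3. Atf3, a stress-induced transcription factor of the same list, was highest there, at 897 normalized counts against 121 to 187 in the other NTG libraries and 82.6 to 252 in mNrf2-TG libraries.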

How the data were processed

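RNA from 4 NTG and 3 mNrf2-TG hearts was sequenced as stranded poly(A) libraries, single reads of 50 cycles. The authors aligned the reads with Novoalign 2.08.01 to mm10 (the methods also name hg19 for the index) and deposited counts per gene without normalization. The program that counted and its use of strand are not given in the sources used here, so it is unknown whether reads of Nppa, Npr3, Corin and Acta1 were kept apart from those of genes annotated on the opposite strand. The authors also deposited rlog values, on a log2 scale, made with DESeq2 1.32.0, and a comparison whose signal column, the authors' mean of counts over size factors, and whose fold changes and p-values were not used. Of 14665 entries, 24 repeats of a gene were removed, and 14637 of 14641 genes had a summed count above 1 and were tested. Library totals of 6534684 to 8405857 limit what can be seen in genes with few counts, and floors of 3 counts cover counting error only.

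Groups were compared by the quasi-likelihood test of edgeR 4.0.16 (R 4.3.3) on TMM-normalized counts and with no covariate, as the labels give no batch and the replicate numbers of the groups do not match. P-values were adjusted by Benjamini-Hochberg over all tested genes, and an adjusted p under 0.05 is called here. The fold change scale is log2, and the SE was taken from the F statistic (its root divided into the log2 fold change). On simulated counts with 200 of 14637 genes changed by a log2 fold change of 1.5, 98.5% were recovered and 7.94% of the calls were false. The changed genes were drawn from those with higher mean counts, and no simulated library was set apart as NTG replicate 3 was. That recovery therefore does not describe genes such as Nppb and Acta2. Ratios of 2 genes were tested by exact permutation over 35 splits, and Nppa to Myl7 and Ankrd1 to Ankrd2 were not computed because a denominator was 0. Alternatives were DESeq2 1.42.0, limma 3.58.1 (voom, and trend on the deposited rlog values), DESeq2 size factors, the library total as the scale, 3 low-count filters (filterByExpr, a minimum of 10 counts, none), 0.5 added to counts in ratios, and leaving out each library. The p-values of the fits set the difference between groups against the spread between mice. Those of the permutation test rank it among the 35 splits.

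The members, the lists and the tests were chosen with earlier results of these data known. Genes named are the members, their families, Nfe2l2, genes in ratios and called genes of the lists. Up to 5 called genes of a list are named, each with a mean count of at least 10. Prkg1, Pde2a, Pde3a, Pde5a and Pde9a of the hormone pathway are named too, although they were not called. Ccn2, Myh7, Myl4, Myl9, Mybphl, Nr2f2, Synpo2, Smtn, Tagln, Atf3 and Hspa1a were added after their values were seen. Sln and Bmp10 are named only as markers without an entry. Sequences and motifs come from RefSeq windows of 250 bases (GRCm38.p6), positions from GENCODE M21. Python 3.11.15 with pandas 2.3.3, numpy 2.4.6, scipy 1.17.1 and matplotlib 3.10.9 was used.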

Additional observations from a re-analysis of the deposited data

Results flagged for a closer look

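Within the 4 NTG libraries, 23 values (the members, their relatives and the ratios) were examined for 1 library far from the rest, by Dixon's gap over the range above its critical value. No chance rate is set beside the result, because the members were chosen with earlier results of these data known. Of the 23 values, 9 passed. NTG replicate 3 accounted for 7 of them. For Nppb it stood at 5427 normalized counts against 679 to 1382 in the other NTG libraries. For Acta1 it stood at 9170 against 1568 to 2108, and for Acta2 at 7947 against 1026 to 1886. For Csrp1 it was the lowest, at 326 against 463 to 478. The ratio of Acta1 to Actc1 was 0.146 against 0.0165 to 0.0171, that of Acta2 to Actc1 was 0.127 against 0.00975 to 0.0147, and that of Acta2 to Myh11 was 18.2 against 2.83 to 5.23. These ratios share genes with the counts above. The other 2 were Corin in NTG replicate 2, at 3099 against 2552 to 2608, and the ratio of Fhl1 to Fhl2 in NTG replicate 4, at 0.101 against 0.125 to 0.127. What set NTG replicate 3 apart was not tested.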

How the results depend on the processing

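Nppa and Ankrd1 were called higher in all 15 alternative settings, and Npr3, Corin, Csrp3 and Fhl1 in none of them. In limma-voom Acta2 passed the threshold with a log2 fold change of 1.89. When single libraries were left out, the log2 fold change ran from 0.95 to 2.38 for Nppb, from 1.09 to 2.53 for Acta2, from −0.84 to 0.41 for Acta1 and from −0.23 to 0.01 for Npr3. The highest value came without NTG replicate 3 for Nppb, Acta2 and Acta1 and without NTG replicate 2 for Npr3. The number of members called ran from 2 to 5, the latter without NTG replicate 3, and the number of all genes called from 1373 (without mNrf2-TG replicate 17) to 2950 (without NTG replicate 3), against 2519 with all libraries. It was 1603, 1597, 1496 and 1642 without NTG replicates 1 and 2 and mNrf2-TG replicates 18 and 19. Fewer libraries entered each of these fits. The log2 difference in ratio ran from −0.56 to 0.49 for Acta1 to Actc1 (0.49 without NTG replicate 3), from −0.19 to 0.19 for Csrp3 to Actc1 (0.19 without NTG replicate 3 and 0.13 without mNrf2-TG replicate 17) from −0.77 to −0.07 for Nppa to Nppb and from −0.70 to −0.50 for Fhl1 to Fhl2. An exact test on 6 libraries cannot pass the threshold, so a loss of that call says nothing of its stability. The cause of these shifts was not tested. No paired analysis was possible because the groups share no replicate number. At these depths Ankrd2 cannot be compared.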

Other observations

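Genes outside the fixed lists, chosen after their values were seen, show what else was high in NTG replicate 3. Xirp1, an actin-binding protein of the intercalated disc, stood at 10769 normalized counts in it, against 2531 to 2838 in the other NTG libraries and 3113 to 4847 in mNrf2-TG libraries. Hbegf, a growth factor that binds the EGF receptor, stood at 1129 against 132 to 264 and 189 to 312. Rcan1, an inhibitor and target of calcineurin, stood at 2804 against 1016 to 1081 and 811 to 1689. For these 3 genes NTG replicate 3 lay above all other libraries of both groups.

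Other genes were high in NTG replicate 3 and in the mNrf2-TG libraries alike. Myl9, a smooth muscle myosin light chain, stood at 752 in NTG replicate 3, 188 to 270 in the other NTG libraries and 828 to 1392 in mNrf2-TG libraries. Baiap2l1, an adaptor that bundles actin, stood at 1826, 171 to 203 and 1264 to 2500. Arc stood at 100, 27.0 to 36.8 and 163 to 332. These values were not tested as a group.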
